A study of Mus musculus with 40 samples.

Results

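The FGF and MET receptor genes are described here together with their ligands: the receptors Fgfr1, Fgfr2, Fgfr3, Fgfr4 and Met, and the ligands Fgf1, Fgf2 and Hgf. They were chosen by gene symbol, and all 8 were measured among 18193 genes in all, by 22 of the 45037 probe sets on the array that are not control probe sets. Expression was measured in mouse brain tumors, tumor cell lines and cortex on 40 Affymetrix whole-genome arrays. Of these, 11 were p53nullCKO gliomas (hGFAP-cre+;p53floxE2-10/floxE2-10, with both p53 alleles deleted after recombination), 11 were p53R172HCKO gliomas and 11 were cell lines of end-stage p53R172HCKO gliomas. A further 2 were cell lines from early biopsies of p53R172HCKO gliomas, and 5 were normal cortex. All p53R172HCKO samples carried hGFAP-cre+;p53LSLR172H/floxE2-10, that is, one allele with the R172H missense mutation and one deleted allele. The cortices were of 2 kinds, 3 with Cre and one floxed allele (hGFAP-cre+;p53floxE2-10/+) and 2 without Cre (hGFAP-cre-;p53floxE5-6/floxE5-6), so some of the control tissue also carried the recombinase. Cre was driven by the human GFAP promoter, which is active in neural cells of the developing brain. The labels give no age. Each sample is named below by its group and its array number.

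Fibroblast growth factor receptors are receptor tyrosine kinases that bind a fibroblast growth factor together with heparan sulfate, dimerize, and signal through the docking protein FRS2 to the Ras-MAPK and PI3K pathways. MET is the receptor of hepatocyte growth factor, which is secreted as an inactive precursor and cut into its active form by serine proteases. In the brain, Fgfr1 is widely expressed in neural progenitors and neurons, Fgfr2 and Fgfr3 are best known in glia, and Fgf2 is the mitogen added to cultures of neural stem cells. The cell lines measured here were grown as neural stem cells in serum-free medium with human FGF2 and EGF, whereas tumors and cortices were taken from the animal.

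Values are log2 signals, on which 1 unit is a doubling of the array signal, and probe sets differ in brightness, so levels are compared between samples and never between genes. Per array, the median over all probe sets lay between 5.24 and 5.47, and signals below about that level are called dim here. Of 11 neuron markers measured, all 11 were lower in gliomas than in cortex and 9 of 9 cell cycle markers were higher. All 12 microglia and macrophage markers were lower in the lines than in p53R172HCKO gliomas, with C1qb at 3.43 in the lines and 10.9 in the gliomas. The neuron level of an array, as the median difference of the markers from the cortex mean, ran from -7.74 to -0.60 in p53nullCKO gliomas and from -7.44 to 0.08 in p53R172HCKO gliomas, against -0.15 to 0.09 in cortices. The gliomas of arrays 38, 45 and 58 were the closest to cortex. Per the study, histology before the arrays had found normal tissue in a p53R172HCKO tumor. The labels do not say which array it is, and no array was left out of the main comparisons for it. In tissue, fewer cells of a type and less RNA per cell cannot be told apart. A gene was called at an adjusted p under 0.05 (limma with Benjamini-Hochberg adjustment over 18193 genes), and each gene is represented by its brightest probe set.

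Against cortex, the gliomas of both genotypes had lower Fgfr2, Fgfr3, Fgf1 and Hgf, and none of the 8 genes was higher. The median log2 difference of the 8 genes was -0.19, and that of all genes was -0.03. Thus 4 of 8 genes were called, against 47.2% of all genes in this comparison (24.7% lower and 22.6% higher). In p53nullCKO gliomas alone 3 genes were lower (Fgfr2, Fgf1 and Hgf), where 22.2% of all genes were lower, and in p53R172HCKO gliomas alone 3 were lower (Fgfr2, Fgfr3 and Fgf1), where 24.3% of all genes were lower. The lines differed from cortex in 4 of 8 genes, with Fgfr1 higher and Fgfr2, Fgf1 and Hgf lower, against 49.8% of all genes (25.5% higher and 24.3% lower). The lines differed from p53R172HCKO gliomas in 1 gene, Fgfr1, against 13.7% of all genes (7.24% higher and 6.43% lower), with a median log2 difference of 0.13 for the 8 genes and 0.05 for all genes. Counted in either direction, these shares of members are near the shares of all genes. All members called in gliomas were lower, a larger share than that of all genes that were lower, but 8 genes are few. The comparisons with cortex share their 5 cortices.

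**Figure D1:**
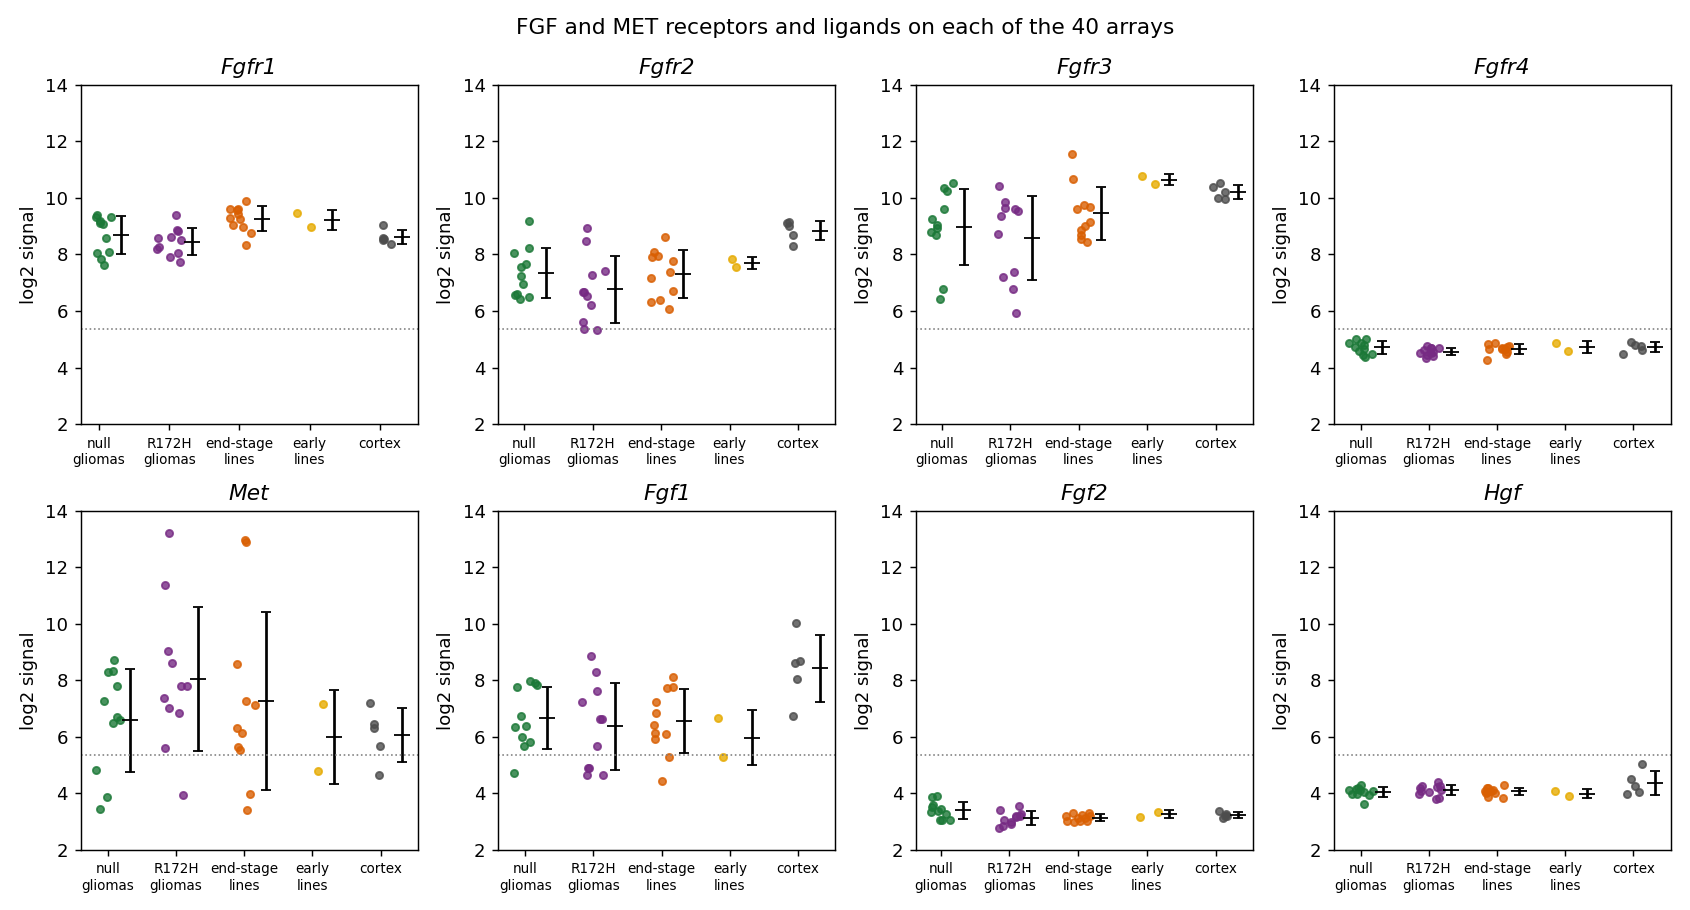
Log2 signal (vertical axis) of the 8 genes on each of the 40 arrays, by group; points are arrays, bars are mean ± SD (n = 11, 11, 11, 2 and 5) and the dotted line is the median of all probe sets on all arrays, 5.36. Fgfr4, Fgf2 and Hgf lie below that line on all arrays, and Met spans the widest range, with 4 arrays above 10.

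Fgfr1 encodes the FGF receptor most used by neural progenitors, and it was the only one of the 8 genes called between the lines and the p53R172HCKO gliomas. In the 11 lines its log2 signal was 8.35 at the lowest, 9.30 at the median and 9.88 at the highest, against 7.75, 8.51 and 9.40 in p53R172HCKO gliomas. The groups overlapped, but 8 of 11 lines and 1 of 11 p53R172HCKO gliomas lay above the highest cortex. On average the lines reached 9.26 ± 0.44 and the p53R172HCKO gliomas 8.45 ± 0.48 (SD, n = 11 each), a log2 difference of 0.81 (SE 0.21, 1.75-fold, limma adjusted p = 0.00941). The other probe sets of Fgfr1 were also higher in the lines, by 0.86 (1425911_a_at) and 0.57 (1436551_at) on the log2 scale, both past the threshold. All 3 of the 22 member probe sets called in this comparison were those of Fgfr1, against 7.14% of all probe sets called higher. The early biopsy lines had 8.97 and 9.46, within the range of the end-stage lines. Markers of other cells also differed between these 2 groups, in the opposite direction to Fgfr1. All 12 microglia markers and 11 of 12 vessel markers were lower in the lines than in p53R172HCKO gliomas. The microglia level per array was -4.21 to -3.21 in the lines and 0.24 to 2.68 in those gliomas, as log2 differences from the cortex mean, and the vessel level was -3.26 to -2.34 in the lines and -1.09 to 0.49 in the gliomas. Their part in the Fgfr1 difference was not tested.

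The 11 p53nullCKO gliomas had Fgfr1 signals from 7.63 through a median of 9.09 to 9.38, on both sides of the 5 cortices, which had 8.38, 8.51, 8.55, 8.57 and 9.03. For the gliomas of both genotypes the log2 difference from cortex was -0.04 (95% interval -0.54 to 0.47, adjusted p = 0.916). In p53nullCKO gliomas 6 arrays lay above the highest cortex and 4 below the lowest, around a mean of 8.69 ± 0.67 (SD, n = 11). Against cortex the lines were higher by 0.65 (SE 0.27, adjusted p = 0.0448), and this call was lost when any of 11 single arrays was left out (cortices 31 to 34 and lines 47, 49, 51, 55, 59, 61 and 68; adjusted p of 0.0525 to 0.103). It was also lost with cyclic loess normalization (0.30, adjusted p = 0.392) and with the mean of all probe sets (0.41, adjusted p = 0.164). Leaving out probe sets marked as cross-hybridizing (_x_at) or shared between transcripts (_s_at) also lost the call (0.50, adjusted p = 0.136). So did using only the Cre-positive cortices (0.55, adjusted p = 0.195). The other Fgfr1 probe sets differed from cortex by 0.50 (1425911_a_at) and 0.10 (1436551_at), and neither was called.

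Fgfr2 and Fgfr3 encode receptors expressed by astrocytes and by cells of the oligodendrocyte lineage, and both were lower in gliomas than in cortex. Markers of these cells moved too. In gliomas against cortex 5 of 10 astrocyte markers were lower (median log2 difference -0.94) and 5 of 9 markers of mature oligodendrocytes were lower (median -2.09), while 6 of 10 markers of oligodendrocyte progenitors were higher (median 2.08). The astrocyte level per array was -3.70 to 0.19 in p53R172HCKO gliomas and -1.98 to 0.04 in p53nullCKO gliomas, against -0.16 to 0.19 in cortices, and the part of these cells in the receptor levels was not tested. For Fgfr2 the p53R172HCKO gliomas had 5.33 at the lowest, 6.68 at the median and 8.95 at the highest, the p53nullCKO gliomas 6.42, 7.23 and 9.18, and the 5 cortices 8.32, 8.67, 8.996, 9.10 and 9.14. Only 3 of the 22 gliomas (arrays 37, 52 and 58) reached the level of the lowest cortex. The mean was 7.07 in the gliomas and 8.85 ± 0.35 in cortex (SD, n = 5), a log2 difference of -1.78 (SE 0.44, 3.43-fold lower, adjusted p = 0.00107). By genotype the log2 difference was -2.07 (SE 0.48, adjusted p = 0.000592) in p53R172HCKO gliomas and -1.49 (SE 0.48, adjusted p = 0.0116) in p53nullCKO gliomas. The direction and the call held with every single glioma or cortex left out in turn, where the difference from cortex of both genotypes lay between -1.91 and -1.71.

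All 3 Fgfr2 probe sets were lower in gliomas than in cortex, including one (1443211_at) that was dim in every group, with a mean of 3.94 and an SD of 0.385 over the 22 gliomas, against a mean of 4.86 and an SD of 0.263 over the 5 cortices. In the lines Fgfr2 was again below cortex, with 6.08 at the lowest, 7.38 at the median and 8.63 at the highest, and only line 47 reached the cortex range. The log2 difference of the lines from cortex was -1.53 (SE 0.48, adjusted p = 0.00787), and from p53R172HCKO gliomas it was 0.54 (95% interval -0.23 to 1.31, adjusted p = 0.368). The early biopsy lines had 7.55 and 7.85, inside the range of the end-stage lines. Over the 40 arrays Fgfr2 and the cell cycle markers ran in opposite directions (r = -0.69 over 40 arrays, -0.59 over the 22 gliomas and -0.63 over the 11 lines), as a description of arrays that share one normalization. The cell cycle level ran from 1.72 to 7.14 in gliomas, against -0.01 to 0.16 in cortices, and its part in the Fgfr2 level was not tested.

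For Fgfr3 the p53R172HCKO gliomas ran from 5.91 through a median of 9.35 to 10.41 and the p53nullCKO gliomas from 6.44 through 9.03 to 10.52, whereas the cortices had 9.98, 9.98, 10.21, 10.39 and 10.54. Of the 22 gliomas, 18 lay below the lowest cortex, but they did not shift as a block. Of the 22, 6 lay between 5.91 and 7.37 (arrays 36, 41, 46, 50, 54 and 56), and the other 16 lay at 8.70 or above. The log2 difference of all gliomas from cortex was -1.45 (SE 0.57, 2.72-fold lower, adjusted p = 0.0367). It lost its call when any one of the 5 cortices was left out (adjusted p of 0.0549 to 0.082) and when gliomas 36, 41 and 50 were left out (-1.05, adjusted p = 0.056). Gliomas 36 and 50 had the lowest Fgfr3 of their genotypes, so a smaller difference without them follows from that choice. In p53R172HCKO gliomas alone the difference was -1.64 (SE 0.63, adjusted p = 0.0304), and in p53nullCKO gliomas it was -1.25 (SE 0.63, adjusted p = 0.105). The p53R172HCKO call was lost without any one of cortices 30, 33 and 34 or gliomas 50, 54 and 56 (adjusted p of 0.0505 to 0.0651). A second probe set of Fgfr3 (1425796_a_at) gave -1.10 (SE 0.29, adjusted p = 0.00214), with 21 of 22 gliomas below the lowest cortex.

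The gliomas of arrays 36, 41 and 50 were also those with the lowest levels of oligodendrocyte progenitor markers (median differences from cortex of -1.35, -0.08 and -2.77, against a highest glioma value of 3.87). Gliomas 46, 54 and 56, also low in Fgfr3, were not among those with the lowest levels of these progenitor markers. Glioma 54 had the lowest astrocyte level of all gliomas (-3.70). The part of progenitor cells and of astrocytes in the Fgfr3 level was not tested. The end-stage lines had 8.44 at the lowest, 9.16 at the median and 11.54 at the highest, the last in line 59, and the early lines had 10.51 and 10.79. From cortex the lines differed by -0.77 (95% interval -2.04 to 0.50, adjusted p = 0.324). The correlation of Fgfr2 with Fgfr3 was r = 0.65 over the 22 gliomas and r = 0.31 over the 11 lines. Fgfr3 and the astrocyte markers had r = 0.66 over the gliomas, and Fgfr2 had 0.66 with the same markers.

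**Figure D2:**
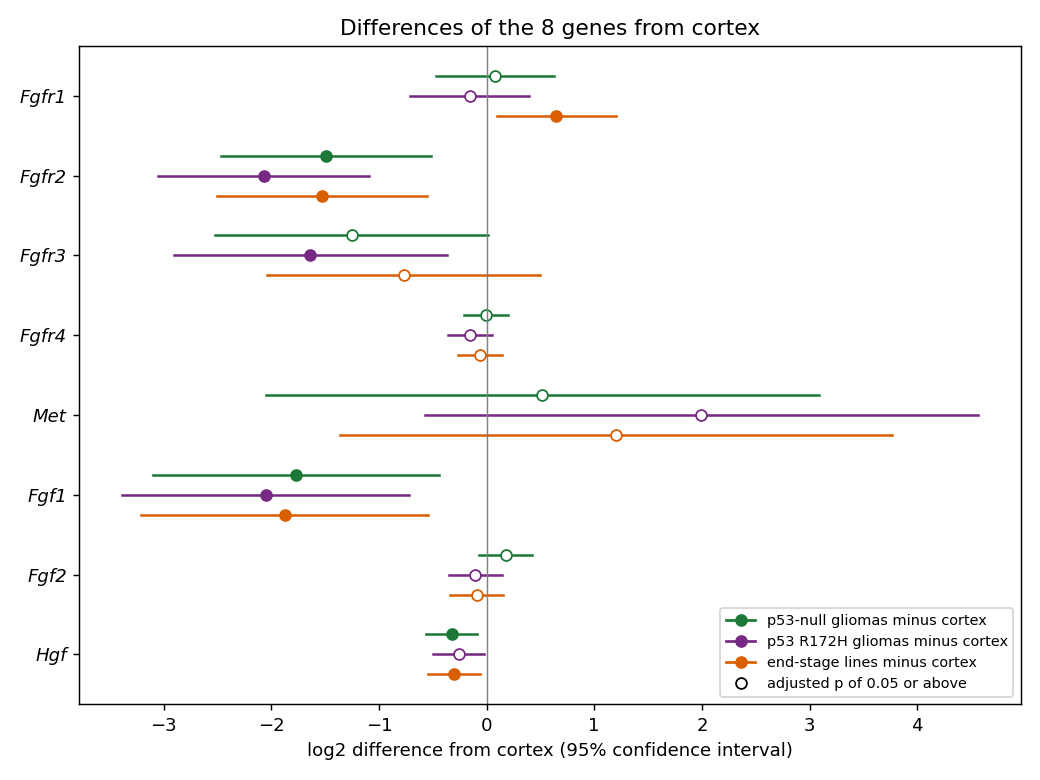
Log2 difference from cortex (horizontal axis) of the 8 genes in p53nullCKO gliomas, p53R172HCKO gliomas and end-stage lines, with 95% confidence intervals from the limma fit; filled points have an adjusted p under 0.05. Fgfr2 and Fgf1 lie below 0 in all 3 comparisons, and Met has the widest intervals, each of which includes 0.

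The sequences before the starts of Fgfr2 and Fgfr3, both lower in gliomas, are shown with that of Met, the most variable gene of the set. Each is the 250 bases upstream of a start in RefSeq (build GRCm38.p6), read on the gene's strand. Capitals mark motif matches, searched on both strands. The motif of the GC box was GGGCGG, that of the CCAAT box was CCAAT, that of the TATA box was TATAAA, that of the AP-1 site was TGAGTCA and that of the E-box was CACGTG.
Fgfr2, chr7:130266809-130267058, minus strand: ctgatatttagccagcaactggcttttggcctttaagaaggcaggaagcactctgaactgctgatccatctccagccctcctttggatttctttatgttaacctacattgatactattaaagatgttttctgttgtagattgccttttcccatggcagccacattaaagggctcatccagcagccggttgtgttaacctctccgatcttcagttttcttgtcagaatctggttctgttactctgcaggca
Fgfr3, chr5:33721474-33721723, plus strand: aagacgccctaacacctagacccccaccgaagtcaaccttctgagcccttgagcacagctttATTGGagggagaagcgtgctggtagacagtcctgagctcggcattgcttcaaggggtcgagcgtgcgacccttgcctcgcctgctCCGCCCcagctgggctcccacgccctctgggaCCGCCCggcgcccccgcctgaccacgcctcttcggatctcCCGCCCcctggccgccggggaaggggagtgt
Met, chr6:17463707-17463956, plus strand: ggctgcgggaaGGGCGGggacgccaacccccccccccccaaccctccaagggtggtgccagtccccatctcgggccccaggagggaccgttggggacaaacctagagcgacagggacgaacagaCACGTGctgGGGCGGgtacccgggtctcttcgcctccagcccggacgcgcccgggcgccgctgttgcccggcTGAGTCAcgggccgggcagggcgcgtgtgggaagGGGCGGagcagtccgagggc

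The windows differ in composition. The Fgfr2 window holds 2 CG dinucleotides and no match of any of the 5 motifs, the Fgfr3 window 19 CG dinucleotides with 3 GC boxes and 1 CCAAT box, and the Met window 24 CG dinucleotides with 3 GC boxes, 1 AP-1 site and 1 E-box, against a median of 6 CG dinucleotides over 32841 such windows of mouse genes. Of all windows, 32.7% hold a GC box, 33.9% a CCAAT box, 12.4% a TATA box, 4.46% an AP-1 site and 6.02% an E-box. These are matches of letters only. A second start of Fgfr3 listed in RefSeq is not shown.

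Fgfr4, a receptor known best from liver and muscle, was dim in every group. Its brightest probe set had 4.39 to 5.03 in p53nullCKO gliomas, 4.35 to 4.75 in p53R172HCKO gliomas, 4.27 to 4.88 in end-stage lines and 4.48 to 4.91 in cortices. The log2 difference of the gliomas from cortex was -0.08 (95% interval -0.27 to 0.11, adjusted p = 0.512). None of its 5 probe sets exceeded the median of all probe sets in cortex or in any line, and only 1 of them (1418596_at) did so in any glioma, in 2 p53nullCKO gliomas with a highest value of 5.93 in array 35. That probe set ran opposite to the brightest one, with a mean of 4.22 over the 22 gliomas against 3.76 over the 5 cortices, and it was not called. Another dim probe set (1427846_x_at) was called lower in gliomas (-0.26, limma adjusted p = 0.0134). In p53R172HCKO gliomas alone, 1427846_x_at (-0.37) and 1427845_at (-0.26) were called lower.

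Met encodes the receptor tyrosine kinase for HGF, and its signal varied more between samples than that of any other member. In p53R172HCKO gliomas it ran from 3.94 through a median of 7.78 to 13.21, in end-stage lines from 3.40 through 6.32 to 12.96, in p53nullCKO gliomas from 3.43 through 6.70 to 8.70, and in cortices it was 4.65, 5.67, 6.32, 6.46 and 7.19. The highest values were those of 4 samples of p53R172HCKO genotype, the gliomas of arrays 54 (13.21) and 46 (11.36) and the lines of arrays 55 (12.96) and 47 (12.91). All other 36 arrays lay at 9.02 or below. Per the study's methods each end-stage line was derived from one of the p53R172HCKO gliomas measured here. The labels do not say which, so these arrays may stem from fewer tumors than arrays, and the comparison of lines with p53R172HCKO gliomas treats samples of the same tumor as separate.

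The second Met probe set (1422990_at) read 9.52, 6.02, 8.84 and 8.13 on the arrays 54, 46, 55 and 47, and the highest of its values elsewhere was 4.39, in a cortex. At the other end, the brighter probe set was below 4 on 5 arrays, the p53nullCKO gliomas 44 and 36, the p53R172HCKO glioma 52 and the lines 53 and 59. No difference between groups was called for Met. From cortex the gliomas differed by 1.26 (95% interval -1.10 to 3.61, adjusted p = 0.392), and from p53nullCKO gliomas the p53R172HCKO gliomas differed by 1.48 (95% interval -0.55 to 3.51, adjusted p = 0.625). The lines differed from p53R172HCKO gliomas by -0.79 (95% interval -2.82 to 1.24, adjusted p = 0.645), and the early biopsy lines, at 4.80 and 7.16, lay within the range of the end-stage lines.

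Met lies on chromosome 6, and the gene whose pattern over the 40 arrays was most like it was Capza2, the next protein-coding gene on that chromosome and the gene of a subunit of the actin capping protein. Pearson's r was 0.781 over 40 arrays and 0.744 over the 22 gliomas. Capza2 had its highest signals on the 4 arrays with the highest Met, at 13.61 in line 47, 13.23 in glioma 54, 13.11 in glioma 46 and 12.66 in line 55, against at most 12.22 on the other 36 arrays. Without the 2 arrays farthest from the median of Met (54 and 55), r was 0.707, and over the 36 arrays other than those 4 it was 0.38. Over p53nullCKO gliomas alone r was 0.11 (n = 11), against 0.893 in p53R172HCKO gliomas and 0.868 in end-stage lines (n = 11 each), 2 groups that each hold 2 of the 4 arrays.

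Other genes near Met, 6 on each side and looked at after the Met values were seen, did not share this order on all 4 arrays. St7, beyond Capza2, was highest of its group in glioma 54 (10.39, group median 8.35) and in line 55 (9.55, group median 8.35), but read 8.36 in glioma 46 and 8.30 in line 47. Cav1, on the other side of Met and the gene of the caveolar coat protein, was the highest of its group in glioma 46 (11.18, group median 9.80) and read 8.16 in glioma 54. Wnt2 and Cftr were low in that group, with their highest signals in glioma 54. They read 5.54 and 5.17 in glioma 54, with group medians of 3.66 and 3.31.

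**Figure D3:**
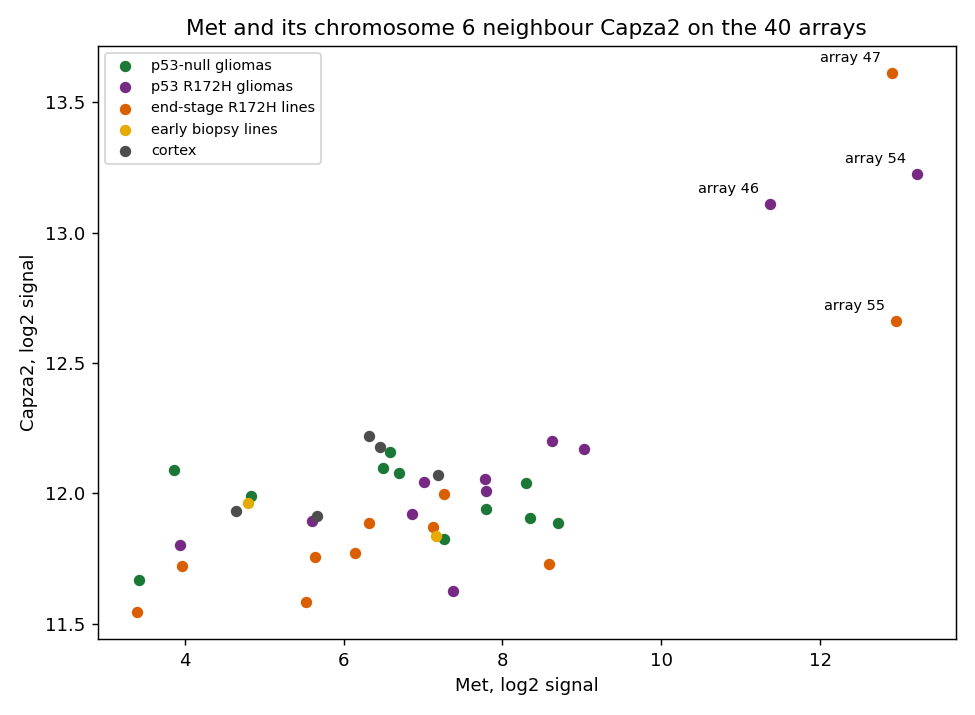
Log2 signal of Met (horizontal axis) and of its neighbour Capza2 (vertical axis) on the 40 arrays, colored by group. The labelled gliomas 46 and 54 and lines 47 and 55 have Met signals of 11.36 to 13.21 and Capza2 signals of 12.66 to 13.61, above the other 36 arrays in both genes.

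Fgf1, a ligand that binds all FGF receptors and is made by neurons, was lower in gliomas and lines than in cortex. In p53R172HCKO gliomas the signal ran from 4.64 through a median of 6.63 to 8.87, in p53nullCKO gliomas from 4.70 through 6.39 to 7.98 and in end-stage lines from 4.42 through 6.42 to 8.13, whereas the cortices had 6.74, 8.04, 8.62, 8.68 and 10.01. The cortices themselves were spread, and 14 of the 22 gliomas lay below the lowest of them, that of array 33. The log2 difference was -1.91 (SE 0.60, 3.76-fold lower, adjusted p = 0.00865) for all gliomas and -1.88 (SE 0.66, adjusted p = 0.0165) for the lines. Without the cortex of array 30, the highest, the difference was -1.51 for the gliomas (adjusted p = 0.0583) and -1.48 for the lines (adjusted p = 0.0825).

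A second Fgf1 probe set (1450869_at) was lower in gliomas by 1.73 (SE 0.44, adjusted p = 0.00144), while the dimmest (1441042_at) was not called. In both called probe sets the highest glioma lay under the highest cortex, and glioma 58, whose neuron markers were the closest to cortex, had the highest Fgf1 of its group. Among p53nullCKO gliomas the highest was array 36 in the brightest probe set and array 38 in 1450869_at. Fgf1 and the neuron markers had r = 0.60 over 40 arrays, 0.58 over the 22 gliomas and 0.26 over the 11 lines. The part of neurons in the Fgf1 level was not tested. Without gliomas 38, 45 and 58 the call was kept, but these were picked for neuron levels closest to cortex. Since glioma 58 also had the highest Fgf1 of its group, a kept call follows from that choice. It does not bear on the part of neurons.

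Fgf2 and Hgf were dim on all arrays. Fgf2, the FGF that was added to the medium of the lines, ran from 2.75 to 3.56 in p53R172HCKO gliomas, 3.06 to 3.90 in p53nullCKO gliomas, 2.97 to 3.30 in end-stage lines and 3.12 to 3.38 in cortices. The lines differed from cortex by -0.09 (95% interval -0.34 to 0.15, adjusted p = 0.565). Signals this low set only an upper bound on the level of the mRNA.

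Hgf, the ligand of MET, was called lower in gliomas than in cortex by 0.29 on the log2 scale (SE 0.11, adjusted p = 0.0249) and in the lines by 0.30 (SE 0.12, adjusted p = 0.0305). The signal was 3.80 to 4.39 in p53R172HCKO gliomas, 3.62 to 4.30 in p53nullCKO gliomas and 3.84 to 4.28 in end-stage lines, against 3.96, 4.06, 4.25, 4.52 and 5.05 in cortices. The groups overlapped, and without the highest of them, array 33 (one of the cortices without Cre), the difference was -0.12 for the gliomas (adjusted p = 0.34) and -0.13 for the lines (adjusted p = 0.32). Without cortex 31 it was -0.25 for the gliomas (adjusted p = 0.0854) and -0.26 for the lines (adjusted p = 0.09). No Hgf probe set exceeded the median of all probe sets on any array. On the arrays with the highest Met, Hgf read 4.27 in glioma 54, 4.18 in glioma 46, 3.88 in line 55 and 4.11 in line 47, inside the range of the other arrays.

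Counted by probe set, 10 of the 22 were called lower in gliomas than in cortex and none higher, against 24.3% of all 34945 probe sets called lower. In the lines 8 of the 22 were lower than in cortex, against 23% of all probe sets, and 1 was higher. The probe sets called in gliomas were all 3 of Fgfr2, both of Fgfr3, 2 of Fgf1 and 1 each of Fgfr1, Fgfr4 and Hgf. Probe sets of the same gene read that gene on the same arrays, so these are not counts of separate members. The Fgfr1 probe set among them (1436551_at, -0.52, adjusted p = 0.0495) was not the brightest, which differed by -0.04 and was not called.

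Between the genotypes, none of the 8 genes differed, against 0.033% of all genes called. The largest log2 differences of p53R172HCKO from p53nullCKO gliomas were 1.48 in Met and -0.58 in Fgfr2 (95% interval -1.35 to 0.19, adjusted p = 0.607). Fgf2, dim in both, was lower in p53R172HCKO gliomas by 0.28 before adjustment (unadjusted p = 0.00562, adjusted p = 0.228). At an unadjusted p under 0.05, 2024 genes differed between the genotypes, and 1 of the 8 members was among them. The 2 early biopsy lines did not differ from the 11 end-stage lines in any of the 8 genes, against 0% of all genes called in limma (515 at an unadjusted p under 0.05, and 612 by the methods' own test without adjustment), and the widest interval was that of Met (-4.94 to 2.38). With 2 lines, this comparison has little precision.

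The other genes of the pathway are given by role. Spry1, a feedback inhibitor of receptor tyrosine kinase signaling, was 10.0 in gliomas and 7.30 in cortex (log2 difference 2.71, SE 0.49, adjusted p = 2.32e-05), and Etv4, an ETS factor induced by FGF in embryos, was 8.12 and 5.84 (2.29, SE 0.47, adjusted p = 0.000129). Of 11 such genes measured, these 2 were higher in gliomas and none was lower, against 22.6% of all genes higher, with a median log2 difference of 0.58, while that of all genes was -0.03. In the lines 7 of the 11 were higher than in cortex and none lower, against 25.5% of all genes higher, with a median of 1.35, where that of all genes was 0.02. Against p53R172HCKO gliomas only Il17rd, a transmembrane inhibitor of FGF signaling, was called in the lines, at 8.26 against 6.98 (1.28, SE 0.35, adjusted p = 0.011). In that comparison 7.24% of all genes were higher and 6.43% lower.

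Of 16 other FGF ligands, none differed between the lines and p53R172HCKO gliomas, where 13.7% of all genes differed. Against cortex 4 were lower in gliomas, a share near the 24.7% of all genes that were lower. None was higher in gliomas, and the median log2 difference was -0.15. These 4 lower ligands had no counterpart among the higher. The lower ligands included Fgf9, made by neurons, at 5.67 in gliomas and 7.30 in cortex (-1.64, SE 0.40), and the dim Fgf18 (-1.37) and Fgf10 (-1.13). Of the 4 intracellular FGF homologous factors, which bind sodium channels and are not secreted, Fgf13 (-4.35, SE 0.93) and Fgf12 (-2.86, SE 0.66) were lower in gliomas than in cortex, and the median of the 4 was -1.82. Both were lower still in the lines than in p53R172HCKO gliomas (-2.47 and -2.21), in which Fgf11 was higher by 0.94. The 11 neuron markers were lower in the gliomas too, and their part in these differences was not tested.

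Of 25 co-receptors and carriers of FGFs measured, 4 were higher and 7 lower in gliomas than in cortex, where 22.6% of all genes were higher and 24.7% lower, with a median of -0.16. Sdc1, a heparan sulfate proteoglycan that can present FGFs, was higher by 3.88 (SE 0.41, adjusted p = 2.72e-09), at 8.04 in gliomas and 4.16 in cortex. Lower were Gpc5, another heparan sulfate proteoglycan (-3.73, SE 0.62), and Kl, the co-receptor of the hormone FGF23, at 3.84 in gliomas and 7.14 in cortex (-3.30, SE 0.20, adjusted p = 8.09e-15). In the lines 4 of the 25 were higher than in p53R172HCKO gliomas, among them Gpc2 (1.06) and Gpc1 (0.63), against 7.24% of all genes higher. Only Sulf1, which removes sulfate groups from heparan sulfate, was lower (-2.34, SE 0.53), where 6.43% of all genes were lower.

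The adaptors and effectors gave 3 higher and 3 lower of 13 in gliomas than in cortex, with a median of 0.14, and those shares are again near the shares of all genes. The FGF receptor docking protein gene Frs3 was lower (-1.19, SE 0.19), and Gab1 (1.17, SE 0.38) and Shc1 (0.90, SE 0.24), both adaptors of several receptor tyrosine kinases, were higher. In the lines Shc1 was higher than in p53R172HCKO gliomas by 0.71, and Ptpn11, the phosphatase SHP2, was lower (-0.43).

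Among 18 genes of HGF activation and partners of MET, 4 were higher and 5 lower in gliomas than in cortex, with a median of 0.21, also near the shares of all genes. Cd44, a co-receptor of MET, was higher by 2.97 (SE 0.62, adjusted p = 0.00014), and Plat, tissue plasminogen activator, by 1.52 (SE 0.36), whereas Itgb4, an integrin subunit that can associate with MET, was lower by 1.56 (SE 0.23). In the lines 3 of the 18 were higher and 3 lower than in p53R172HCKO gliomas, against 7.24% of all genes higher and 6.43% lower. Plat was at 10.96 in the lines and 10.06 in the gliomas (0.90, SE 0.31). Spint1, an inhibitor of HGF activators (-1.11), and Plau, urokinase (-1.06), were lower. The microglia and vessel markers also were lower in the lines, and their part in these differences was not tested.

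**Figure D4:**
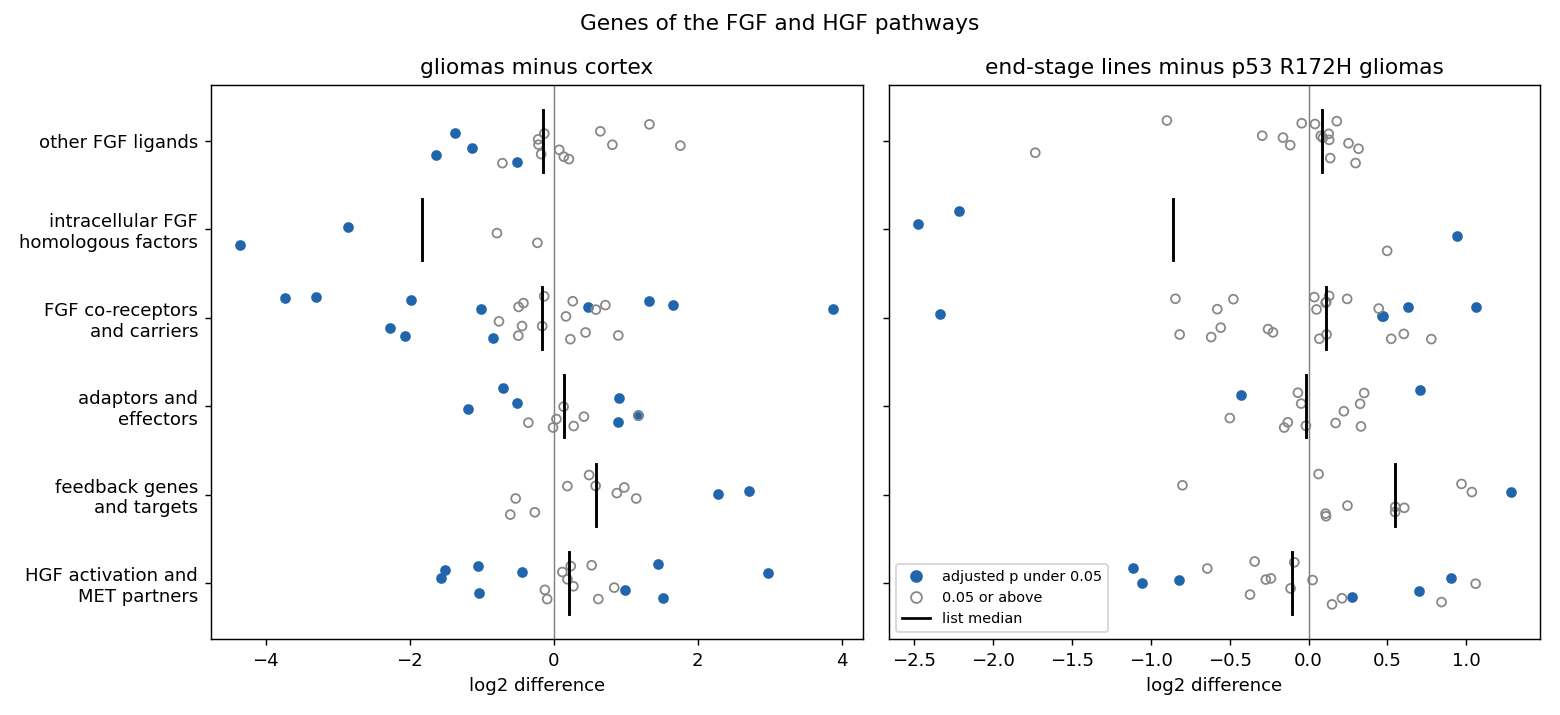
Log2 difference (horizontal axes) of each measured gene of 6 lists around FGF and HGF signaling, for gliomas minus cortex on the left and end-stage lines minus p53R172HCKO gliomas on the right; filled points have an adjusted p under 0.05 and black bars mark list medians. In gliomas the feedback genes and targets have a list median of 0.58, and the intracellular FGF homologous factors of -1.82.

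The genes whose pattern over the 40 arrays was most like that of each member were taken from those with a mean above the median of all probe sets, by Pearson's r. Fgfr1 was closest to Pbxip1 (r = 0.747) and Fgfr3 to Plpp3 (r = 0.81), Ttyh1 (0.78) and Lifr (0.779), of which Ttyh1 had r = 0.834 over the 22 gliomas. Fgfr2 was closest to Acadsb (r = 0.823), a gene of branched-chain amino acid breakdown that lies on the same chromosome 7 with 16 protein-coding genes in between, and to Parva (0.807). Fgf1 was closest to Snap47 (r = 0.76). The Fgf2 list included Nudt6 (r = 0.646), whose gene overlaps Fgf2 on chromosome 3, but Fgf2 was dim throughout. For Hgf no r exceeded 0.691, and for Fgfr4 none exceeded 0.566. These values are descriptions over arrays of 5 groups, which differ in cell content.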

How the data were processed

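RNA was measured on Affymetrix mouse arrays. The deposited values are log2 signals, for which the authors corrected background, quantile-normalized all 40 arrays together and summarized probe sets by RMA (software version not given in the sources used here). That the scale is log2 was inferred from its range. Of 45101 probe sets, 64 controls were dropped, 34945 named 1 gene in the platform annotation (34741 matched RefSeq, GRCm38.p6), 932 named several and 9160 are unnamed here. A gene's value is its brightest probe set on average, giving 18193 genes, dim ones included. Differences come from a limma 3.58.1 fit (R 4.3.3) of 5 groups and 7 comparisons with Benjamini-Hochberg adjustment, repeated over probe sets, and tested on simulated data. The number of arrays limits the precision. Per the study, tumors and cortices came from mice counted one per sample, and each end-stage line was derived from one of the p53R172HCKO gliomas, but the labels name no animal and no pair, so lines and gliomas were compared as separate samples. Members and lists were chosen with earlier results of these data known. Named are all members, per pathway list up to 3 genes with the largest change among those called in gliomas against cortex and in lines against p53R172HCKO gliomas, and 3 genes per member with the highest Pearson's r. Alternatives concerned probe set choice, dim genes, normalization, array weights, moderation, the samples fitted, the threshold, the methods' own test and left-out arrays.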

Additional observations from a re-analysis of the deposited data

Results flagged for a closer look

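Within the 5 cortices, 1 of the 22 member probe sets had a sample that stood apart. The brightest Fgfr1 probe set read 9.03 in the cortex of array 30, against 8.57 in the nearest of the other cortices, a gap of 0.717 of the whole range where 0.71 is the limit. Chance alone gives such a value in about 1 in 20 groups. Without that cortex the Fgfr1 difference of gliomas from cortex was 0.07 instead of -0.04, and neither was called.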

How the results depend on the processing

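Fgfr2 was lower in gliomas and in lines than in cortex, and Fgfr1 was higher in lines than in p53R172HCKO gliomas, under every alternative at the 0.05 threshold and with each array left out. The count of members called in gliomas against cortex was 4, and 2 when only the groups compared were fitted, at an adjusted p under 0.01, or with only the 3 Cre-positive cortices. At 0.01 the count was 0 for p53nullCKO gliomas, 1 for p53R172HCKO gliomas and 1 for lines against cortex, and with the Cre-positive cortices it was 2 for lines. The methods' own test, unadjusted, called 1 gene between the genotypes (Fgf2, p = 0.0252). With one array left out in turn, the count ranged from 2 to 4 for gliomas, 1 to 3 for p53nullCKO gliomas and 2 to 4 for lines against cortex.

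Signs turned only for differences that were not called, and the cause was not tested. As log2 differences, with the mean of all probe sets, p53nullCKO gliomas against cortex had -0.17 for Fgfr1 and 0.11 for Fgfr4, and Hgf had -0.10 between the genotypes. The next values leave out probe sets marked as cross-hybridizing (_x_at) or shared between transcripts (_s_at). Fgfr4 had 0.47 in gliomas, 0.65 in p53nullCKO gliomas, 0.28 in p53R172HCKO gliomas and 0.26 in lines, each against cortex. In lines against p53R172HCKO gliomas Fgfr4 had -0.022. Fgfr1 had -0.025 in p53nullCKO gliomas against cortex, and Fgfr2 had -0.10 in early against end-stage lines. With cyclic loess, Fgfr1 had -0.11 in p53nullCKO gliomas and 0.014 in early lines, and Fgf2 had -0.036 in lines against p53R172HCKO gliomas, where array weights gave -0.027 and leaving out gliomas 38, 45 and 58 gave -0.0063. With the Cre-positive cortices Fgfr1 had -0.014 in p53nullCKO gliomas, and without gliomas 36, 41 and 50 it had 0.017 in gliomas. With one array left out, Fgfr1 ranged from -0.096 to 0.067 in gliomas, Fgfr4 from -0.066 to 0.042 in p53nullCKO gliomas, and Fgf2 from -0.022 to 0.058 in lines against p53R172HCKO gliomas. In early against end-stage lines Fgfr1 ranged from -0.28 to 0.20, Fgfr4 from -0.067 to 0.22, Fgf1 from -1.26 to 0.12 and Hgf from -0.18 to 0.031, where the lone early line was assumed to vary like the other groups. Of all genes, 6 differed between the genotypes, and 0 to 14 under the adjusted alternatives. Lines differed from p53R172HCKO gliomas in 2487 genes, and in 1156 at 0.01. No paired analysis was possible because the labels do not say which line came from which glioma, although the study paired them, and the groups share no replicate number.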
